A study of Mus musculus with 9 samples.

Results

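The 10 genes Fabp1, Fabp2, Fabp3, Fabp4, Fabp5, Fabp7, Cd36, Slc27a1, Slc27a2 and Slc27a5 encode proteins that bind long-chain fatty acids in the cytoplasm or bring them into cells. They were chosen by name, and every non-control probe carrying one of these names was taken, which gave 12 of the 56605 probes on the arrays. All 10 genes were among the 23965 that could be tested. The cells were primary hepatic stellate cells, the liver pericytes that store retinyl esters in lipid droplets and become matrix-producing myofibroblasts when activated. All came from C57BL/6 mice aged 10 weeks by collagenase perfusion, and RNA was hybridised to 9 single-colour Agilent arrays, 3 per group. The first group was quiescent cells, labelled as having had no treatment. The second was cells activated by 7 days on hard culture plates and then transfected overnight with a negative control siRNA. The third was activated in the same way and received siRNA to Cav1, which encodes caveolin-1, the coat protein of caveolae, and both siRNAs were used at 5 nM. The labels do not say when quiescent cells were harvested, how stellate cells were purified after perfusion, or whether replicate samples are separate animals or cultures. P-values therefore measure only the spread between these samples, which may be technical.

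As background, fatty acids enter cells by diffusion and with the help of the scavenger receptor Cd36 and of the Slc27 family (fatty acid transport proteins), which also join the incoming fatty acid to coenzyme A. Inside the cell, the small fatty acid binding proteins (Fabp) carry these poorly soluble molecules to membranes, mitochondria, lipid droplets and nuclear receptors of the PPAR family. Family members are known from different tissues: Fabp1 from liver, Fabp2 from intestine, Fabp3 from heart and muscle, Fabp4 from adipocytes, macrophages and capillary endothelium, Fabp5 from epidermis, and Fabp7 from brain. Quiescent stellate cells hold much of the body's vitamin A as esters of fatty acids, and these droplets are lost on activation.

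Several features of the 9 arrays bear on every value below. Arrays lay on 2 slides, slide 1 with all quiescent samples and control-siRNA sample 1, slide 2 with all Cav1-siRNA samples and control-siRNA samples 2 and 3. Between 53.6 and 60.2% of non-control spots were above background on quiescent arrays, against 61.7 to 70.3% on activated ones. Quiescent array 2 had the lowest share, 53.6%. In the check of the targeted gene, Cav1 read -1.18 ± 0.14 (SD, n = 3) with the control siRNA and -2.94 ± 0.11 with the Cav1 siRNA, a ratio of 0.294. That change of -1.76 on the log2 scale had an adjusted p of 0.14 (limma, Benjamini-Hochberg adjustment over all genes), and it passed 0.05 in 2 of 6 scalings. All levels are log2 signals relative to the 75th percentile of the array, so 0 marks a probe at that percentile and 1 unit is a doubling. All 11 tested markers of quiescent stellate cells were above background on the quiescent arrays, and so were all 17 tested hepatocyte markers, all 16 of sinusoidal endothelium and all 16 of macrophages. A gene could be tested only if above background on all 3 arrays of some group. These counts are therefore partly set by that filter, for markers that activated cells lack.

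Most of these genes were lower in activated than in quiescent cells. Between quiescent and control-siRNA activated cells, 8 of the 10 fell, Fabp3 rose and Fabp5 did not pass the test (adjusted p under 0.05, limma over all genes). Over all 23965 genes, 68.1% were called in this comparison, 42.1% higher and 26% lower. The median change of the 10 was -7.77 on the log2 scale, beside 0.32 for all genes tested, and under other scalings and background corrections it lay between -7.89 and -5.44. Fabp1, Fabp2, Fabp7, Slc27a2 and Slc27a5 passed the background filter through the quiescent group alone, where they are high, and this median rests on them. The other genes changed by 2.26 (Fabp3), -5.50 (Fabp4), -0.23 (Fabp5), -7.49 (Cd36) and -1.14 (Slc27a1). Without the filter the median of all genes was -0.21. Groups of 3 arrays did not overlap for 9 of the 10 genes, beside 69.8% of all genes. In bulk samples such as these, fewer cells of a type and less RNA per cell cannot be told apart.

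**Figure D1:**
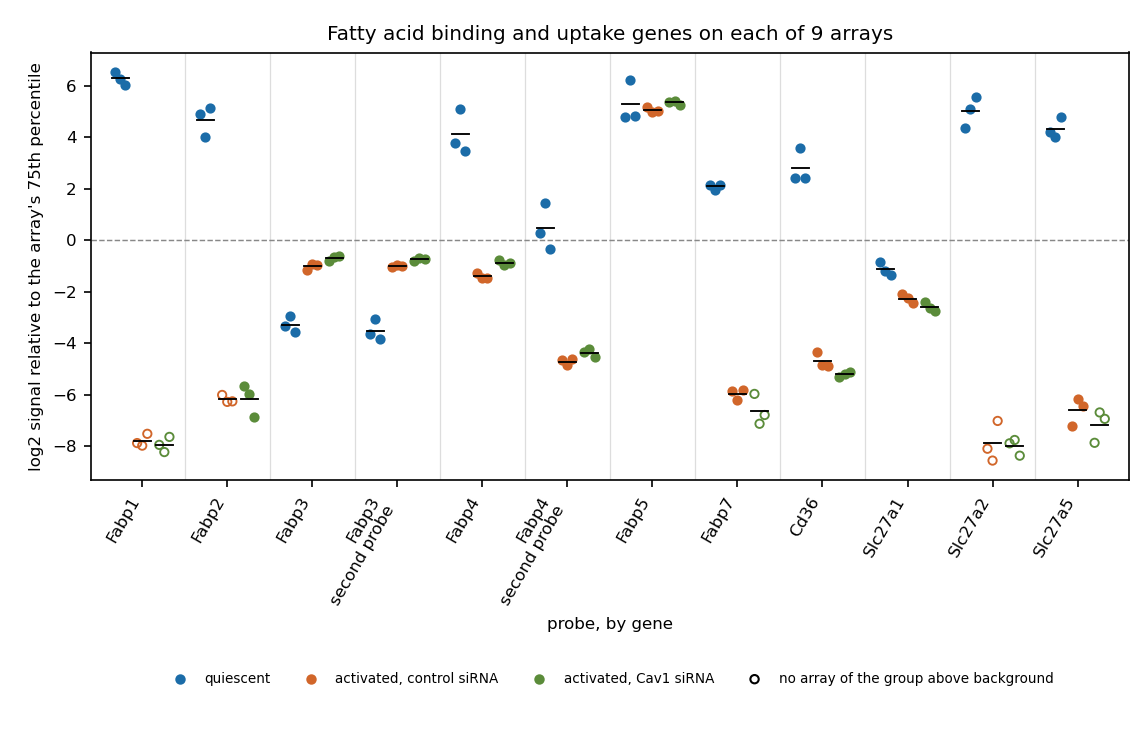
Log2 signal relative to the array's 75th percentile (y axis) of each of the 12 probes (x axis) on each of the 9 arrays, with a bar at each group mean. Open circles mark groups in which no array was above background, and Fabp3 is the gene whose 3 quiescent arrays all lie below its 6 activated arrays.

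Promoters of 4 of the genes that fell are shown with that of Fabp3, the gene that rose. They were not picked by size of change alone: Fabp7 fell more than Cd36 (-8.05 against -7.49) and its promoter is described but not printed. RefSeq promoter sequences on GRCm38.p6 were found for 7 of the 10 genes, 9 promoters in all, with 3 starts listed for Slc27a1. Each run below is the 250 bases before an annotated start, written 5′ to 3′ on the gene's strand. The Cd36 window lies inside the RefSeq span of that gene, chr5:17781690-17888959, so it precedes a start within the gene and not its outermost one. The 4 motifs of interest were searched on both strands, and capitals mark their matches: AGGTCA, the hexamer bound by many nuclear receptors; TATAAA, the TATA box; GGTTAAT, part of the HNF1 site; and CCAAT. For Fabp1 the capitals also mark the closest match to a direct repeat of AGGTCA with any base between the copies, a kind of site bound by PPAR with RXR and by HNF4A, which overlaps an AGGTCA match.
Fabp1 (chr6:71199629-71199878, plus strand): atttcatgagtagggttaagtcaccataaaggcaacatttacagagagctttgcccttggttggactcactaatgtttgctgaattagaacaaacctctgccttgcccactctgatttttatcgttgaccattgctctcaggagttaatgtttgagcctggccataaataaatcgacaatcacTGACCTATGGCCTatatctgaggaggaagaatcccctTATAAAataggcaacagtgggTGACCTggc
Fabp2 (chr3:122894822-122895071, plus strand): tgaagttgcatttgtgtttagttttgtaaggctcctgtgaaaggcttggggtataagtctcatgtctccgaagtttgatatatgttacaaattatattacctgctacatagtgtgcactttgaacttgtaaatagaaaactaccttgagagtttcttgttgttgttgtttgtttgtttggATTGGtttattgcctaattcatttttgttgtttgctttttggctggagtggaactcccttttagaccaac
Slc27a2 (chr2:126552774-126553023, plus strand): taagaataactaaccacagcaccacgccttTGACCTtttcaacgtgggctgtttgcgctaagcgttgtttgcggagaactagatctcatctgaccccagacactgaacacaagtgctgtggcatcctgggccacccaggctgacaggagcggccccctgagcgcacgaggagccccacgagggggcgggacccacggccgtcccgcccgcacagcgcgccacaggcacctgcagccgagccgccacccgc
Cd36 (chr5:17835897-17836146, minus strand): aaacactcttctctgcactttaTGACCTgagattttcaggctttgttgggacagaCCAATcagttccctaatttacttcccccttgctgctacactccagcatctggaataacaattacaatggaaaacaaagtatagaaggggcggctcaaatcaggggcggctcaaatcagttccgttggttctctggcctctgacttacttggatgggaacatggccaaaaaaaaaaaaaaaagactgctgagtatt
Fabp3 (chr4:130308488-130308737, plus strand): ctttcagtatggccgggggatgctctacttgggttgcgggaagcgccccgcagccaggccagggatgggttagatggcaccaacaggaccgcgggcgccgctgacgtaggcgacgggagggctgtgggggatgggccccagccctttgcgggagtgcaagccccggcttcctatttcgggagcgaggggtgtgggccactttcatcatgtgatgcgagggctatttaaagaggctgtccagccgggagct
Fabp1 had AGGTCA at positions -67 and -9 and TATAAA at -30, counted from the annotated start, both hexamers being on the opposite strand. The stretch TGACCTATGGCCT, starting at -67, differed from the direct repeat at 1 base, a closeness found in 0.485% (159) of 32817 promoter windows of the same length. It was the closest match among the 9 promoters searched. The closest one in Cd36, at -63, differed at 2 bases, and 3.23% of windows held a match with at most 2. In Fabp2, Slc27a2 and Fabp7 the closest differed at 3 bases, and in Fabp3 and Slc27a1 at 4 or more. In Slc27a2 the hexamer lay at -220, and in Cd36 at -228 with CCAAT at -195. Fabp2 held CCAAT at -70 and no AGGTCA, and the Fabp3 window held none of the 4 motifs. Of all 32817 windows, 14.0% held AGGTCA, 12.4% TATAAA, 1.63% GGTTAAT and 33.8% CCAAT. Among genes whose promoter is not printed, Fabp7 had AGGTCA at -171 and CCAAT at -126 and -56, and Slc27a1 had CCAAT at -188 of its first start and -128 of its last one. A match describes letters only, and binding was not measured here.

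Fabp1, the liver fatty acid binding protein, went from bright in quiescent cells to background in activated ones. Its probe (chr6:71154906-71154965, plus strand, mm9) read 6.54, 6.27 and 6.05 in quiescent cells, -7.88, -7.98 and -7.52 with the control siRNA, and -7.95, -8.23 and -7.64 with the Cav1 siRNA. As processed intensity, these were 25700 to 33600 units in quiescent cells and 2.16 to 3.77 units in all 6 activated samples, where the probe was not well above background. On this processed signal Fabp1 was therefore at least 5540-fold lower with the control siRNA. Such a bound is the mean of the bright group over a floor for the dim group, the floor on an array being its lowest signal among probes above background, or the probe's own where that was higher. The fitted change was -14.08 ± 0.21 (SE, adjusted p = 7e-10), which for a gene at background is a fitted value and not a measured ratio. With normexp background correction, which starts from the mean and background signals and adds an offset of 50 units to every spot, the fitted change was -9.32, a smaller fold than the bound. The bounds given here for this and the other genes therefore hold for the processed signal and not for normexp.

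Fabp2, the intestinal member of the family, read 4.89, 4.02 and 5.12 on the quiescent arrays (chr3:122602276-122602335, plus strand, mm9). On control-siRNA arrays it read -6.01, -6.28 and -6.26, all not well above background, and on Cav1-siRNA arrays -5.67, -5.96 and -6.85, with 1 of 3 above background. The groups were far apart, and Fabp2 was at least 1800-fold lower with the control siRNA on the processed signal (adjusted p = 1.5e-08), while the fitted change was -10.86 and with normexp -7.82. Few enterocyte markers were measurable beside it: 3 of 8 could be tested, 1 rising, 1 falling and 1 not passing. Their summed signal was 0.972 to 2.01 in quiescent and 0.0823 to 0.128 in control-siRNA cells, in units of the array's 75th percentile, and the part of enterocyte transcripts in the fall of Fabp2 was not tested.

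Fabp7, the brain member of the family, read 2.16, 1.95 and 2.16 on the quiescent arrays (chr10:57508039-57508098, plus strand, mm9), the narrowest spread of the 8 genes that fell (SD 0.12). It read -5.84, -6.22 and -5.82 with the control siRNA, where 1 of 3 arrays was above background, and -5.97, -7.13 and -6.79 with the Cav1 siRNA, where none was. The fitted change with the control siRNA was -8.05 ± 0.28 on the log2 scale (adjusted p = 2.2e-08), and -5.08 with normexp. As 2 of the 3 control-siRNA arrays were at background, no fold is given. Of 6 tested Schwann cell and glial markers, 2 rose, 2 fell and 2 did not pass. Their summed signal went from 95 to 176 in quiescent cells to 1.99 to 2.28 with the control siRNA, most of it from Aldh1l1, a folate enzyme also of hepatocytes, which fell by 7.94 on the log2 scale. The part of these cells in the Fabp7 signal was not tested.

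Fabp4, the adipocyte and endothelial member, was measured by 2 probes at different places in the gene. The brighter one (chr3:10204452-10204511, minus strand, mm9) read 3.77, 5.09 and 3.48 in quiescent cells, -1.26, -1.45 and -1.45 with the control siRNA, and -0.75, -0.96 and -0.89 with the Cav1 siRNA. The other (chr3:10208442-10208501) read 0.29, 1.46 and -0.34, then -4.66, -4.85 and -4.63, then -4.36, -4.21 and -4.53. On both probes all arrays were above background, quiescent array 2 was the highest of all 9, and the 3 groups did not overlap. With the control siRNA Fabp4 fell by 5.50 ± 0.36 on the brighter probe, 45.3-fold (adjusted p = 1.1e-06), and the change on the other was -5.18 ± 0.38, 36.4-fold (adjusted p = 2.5e-06, over all probes, of which 67.9% were called). With normexp these changes were -5.18 and -3.61. Unlike Fabp1, it remained well above background after activation.

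Fabp3, the heart and muscle member, went the other way. Its brighter probe (chr4:129992652-129992711, plus strand, mm9) read -3.33, -2.94 and -3.56 in quiescent cells, -1.17, -0.91 and -0.97 with the control siRNA, and -0.81, -0.65 and -0.62 with the Cav1 siRNA. The quiescent arrays were the 3 lowest, and all 9 arrays were above background. The rise with the control siRNA was 2.26 ± 0.18, 4.79-fold (95% interval 3.61 to 6.35-fold, adjusted p = 4.3e-06). A second probe, which shares a run of 51 of its 60 bases with the first and is no independent measure, rose by 2.52 ± 0.20. With normexp background correction the rise of the first probe was 1.26, the lowest value among 24 alternatives. Of 6 tested striated muscle markers, 3 rose and 3 fell, and their summed signal was 0.426 to 0.725 in quiescent and 0.825 to 1.01 in control-siRNA cells. The part of muscle-type transcripts in the Fabp3 signal was not tested.

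Fabp5, the epidermal member, was high in every group and did not pass the test. Its probe (chr3:10016185-10016244, plus strand, mm9) read 4.78, 6.24 and 4.84 in quiescent cells, 5.16, 4.98 and 5.04 with the control siRNA, and 5.38, 5.41 and 5.27 with the Cav1 siRNA. Quiescent array 2 was the highest of all 9 and the other 2 quiescent arrays were the lowest, so the groups overlapped. The change with the control siRNA was -0.23 ± 0.34 (95% interval -1.01 to 0.55, adjusted p = 0.58), and leaving out quiescent array 2 turned it to 0.25 (adjusted p = 0.085). The probe shares a run of 50 of its 60 bases with a probe for an unnamed transcript, NAP114472-1, and no other probe for these genes shared 20 or more bases with a probe for another gene. NAP114472-1 read 4.37, 5.73 and 4.33, then 4.66, 4.44 and 4.46, then 4.8, 4.86 and 4.72, so its order across arrays ran close to that of Fabp5. Signal from Fabp5 and from a near-identical copy cannot be told apart with these probes, and NAP114472-1 was singled out after its values were seen.

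Cd36, the membrane receptor, fell and stayed measurable in activated cells. Its probe (chr5:17288600-17288659, minus strand, mm9) read 2.43, 3.58 and 2.41 in quiescent cells, -4.33, -4.86 and -4.87 with the control siRNA, and -5.33, -5.20 and -5.11 with the Cav1 siRNA. All 9 arrays were above background, and the 3 groups did not overlap. The change with the control siRNA was -7.49 ± 0.31 on the log2 scale, 180-fold on the processed signal (95% interval of the change -8.20 to -6.79, adjusted p = 6.3e-08). With normexp the change was -5.71, and -5.66 with quantile normalization added. As with Fabp4 and Fabp5, quiescent array 2 gave the highest value. That array also had the highest summed signal of the sinusoidal endothelial markers, 831 against 500 and 515 on the other quiescent arrays. Among quiescent arrays it was also highest for the quiescent stellate markers, 91.1 against 48.8 and 32. The same held for the activated stellate, adipocyte, cholangiocyte and enterocyte lists. It was lowest for the hepatocyte markers, 1390 against 1710 on both others, the macrophage markers, 349 against 605 and 416, and the Schwann cell and glial markers. The part of any cell type in these values was not tested.

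The Slc27 transporters divided by size of change. Slc27a2, a peroxisomal and membrane acyl-CoA synthetase of liver and kidney, read 4.36, 5.09 and 5.56 in quiescent cells (chr2:126413890-126413949, plus strand, mm9). It was not well above background on any activated array, at -8.10, -8.56 and -7.02 and then -7.89, -7.76 and -8.37, and was at least 2270-fold lower with the control siRNA on the processed signal (adjusted p = 1.6e-08). The fitted change was -12.90, and -8.38 with normexp. Slc27a5, the bile acid-CoA ligase of liver, read 4.19, 4.02 and 4.77 (chr7:13573701-13573760, minus strand, mm9), against -7.22, -6.18 and -6.43 with the control siRNA, 1 of 3 above background, and -7.87, -6.69 and -6.94 with the Cav1 siRNA. No activated array came near a quiescent one for either gene, and the fitted change of Slc27a5 with the control siRNA was -10.94 ± 0.37 (adjusted p = 2.1e-08), and -7.63 with normexp. As 2 of its 3 control-siRNA arrays were at background, no fold is given.

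Slc27a1, the transporter known from muscle and fat, was measurable in all samples and changed least of the genes that fell. It read -0.83, -1.20 and -1.35 in quiescent cells, -2.10, -2.26 and -2.45 with the control siRNA, and -2.41, -2.64 and -2.76 with the Cav1 siRNA (chr8:74110256-74110315, plus strand, mm9). The quiescent arrays were the 3 highest, and the activated groups overlapped with each other. The control-siRNA change was -1.14 ± 0.18, 2.21-fold (95% interval of the change -1.56 to -0.73, adjusted p = 4.4e-04). Within slide 1, where 3 quiescent arrays stand against 1 control-siRNA array, the change was -0.97 ± 0.43 and did not pass (adjusted p = 0.13), the spread coming from the quiescent arrays alone. With slide as a block it was -0.97 ± 0.26 and passed (adjusted p = 0.014).

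Slide 1 was the only slide holding both quiescent and control-siRNA cells. Its 1 control-siRNA array gives no spread of its own and is assumed to vary like the quiescent arrays, so only the values are given for the other genes. There the changes were -14.17 for Fabp1, -10.69 for Fabp2, 2.11 for Fabp3, -5.38 for Fabp4, -7.93 for Fabp7, -7.14 for Cd36, -13.10 for Slc27a2 and -11.55 for Slc27a5, each in the direction of the change over all arrays. Fabp5 was -0.13 there.

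**Figure D2:**
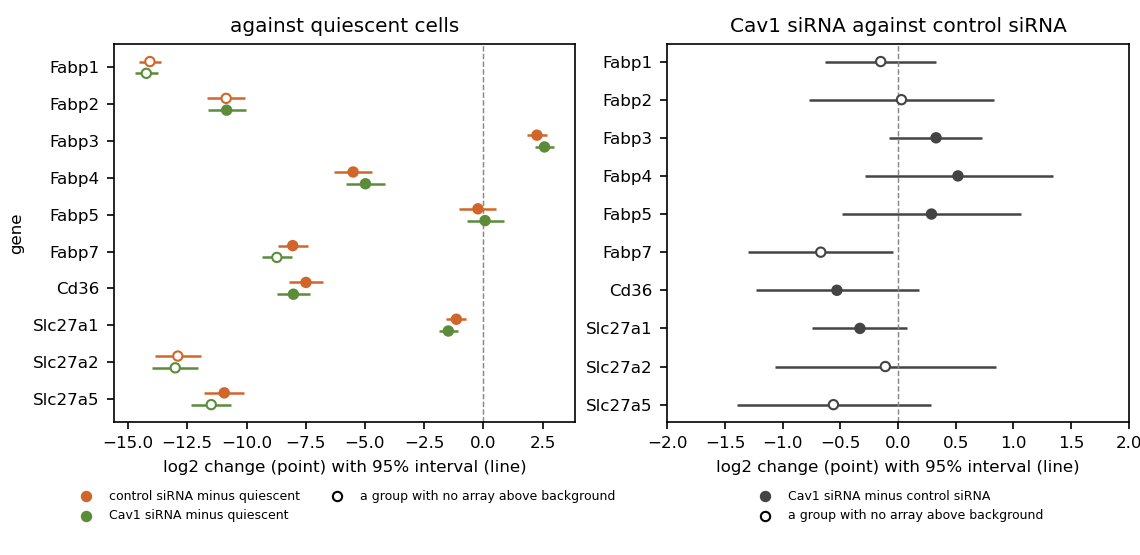
Log2 change (x axis, point) with its 95% interval (line) for each gene (y axis), at left for both activated groups against quiescent cells and at right for the Cav1 siRNA against the control siRNA, on a narrower scale. Open points mark comparisons in which a group had no array above background, and Fabp3 alone lies above 0 with its whole interval at left.

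Markers of other liver cells fell in the same comparison, beside 26% of all genes called lower. On a control-siRNA array 9 to 10 of the hepatocyte, 10 to 11 of the endothelial and 12 of the macrophage markers were above background. Markers above background on all 3 arrays of neither activated group passed the filter through the quiescent group alone, where they are high. The counts and medians below are therefore partly set by that filter. Of 17 tested hepatocyte markers, 17 fell (median -10.57), and their summed signal was 1390 to 1710 in quiescent, 1.96 to 2.21 in control-siRNA and 1.88 to 2 in Cav1-siRNA cells, with 6 and 8 of them above background on no array of those activated groups. Apoa2, an apolipoprotein, and Asgr1, the asialoglycoprotein receptor, the brightest of them, changed by -7.57 and -6.28 on the log2 scale. All 16 sinusoidal endothelial markers fell (median -9.11, or -8.31 with genes at background set to their bound), from a summed 500 to 831 to 4.59 to 5.15 and 2.94 to 3.27, with 5 and 6 above background on no array. Of these the brightest were Egfl7, an endothelial secreted factor, and Ehd3, an endocytic protein, which changed by -4.44 and -5.57. Of 16 macrophage markers 15 fell and 1 rose (median -5.52), from 349 to 605 to 27.1 to 33.9 and 22.2 to 26.7, and 4 were above background on no activated array. Csf1r, the receptor for macrophage colony-stimulating factor, fell by 3.65, while the integrin Itgam rose by 1.58. As background, Fabp1, Slc27a2 and Slc27a5 are known from hepatocytes, and Fabp4 and Cd36 from endothelium and macrophages. Under the other scalings and background corrections the smallest median falls of the 3 lists were -8.95, -6.38 and -5.13. The part of these cells in the falls of the 10 genes was not tested.

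Adipocytes are also known to express Fabp4 and Cd36, and their markers were dim throughout. Of 8 listed, 4 could be tested and 3 fell, the summed signal being 0.826 to 1.43 in quiescent and 0.255 to 0.305 in control-siRNA cells, with the brightest, Lep and Lipe, at -0.42 and -1.84. Quiescent stellate markers gave 8 falling, 1 rising and 2 not passing of 11 (median -3.82), from 32 to 91.1 to 34.2 to 34.8 in summed signal. Among them the lectin Colec11 fell by 1.43, and the secreted matrix protein Ecm1 was at 0.07 (adjusted p = 0.85). Activated stellate markers gave 10 rising of 11 (median 5.44), from 12.4 to 33.6 to 807 to 823, with the collagen genes Col1a2 and Col1a1 up by 5.13 and 5.89. Mesothelial and portal fibroblast markers gave 7 rising and 2 falling of 9, from 1.68 to 2.33 to 150 to 171, led by Fbln2 and Wt1 at 8.19 and 7.07. Of 4 tested cholangiocyte markers 2 rose, 1 fell and 1 did not pass, with Spp1, which activated stellate cells also make, up by 3.37 and Sox9 by 0.71.

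**Figure D3:**
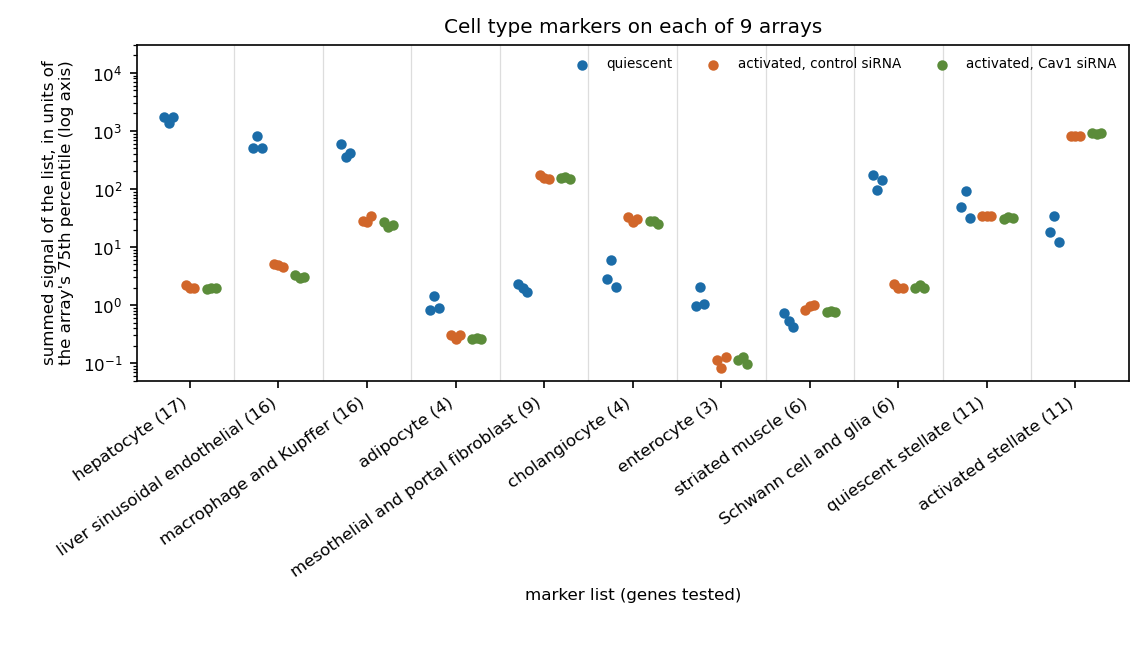
Summed signal of each marker list (x axis, with the number of genes tested) on each of the 9 arrays, in units of the array's 75th percentile on a log axis. Hepatocyte, sinusoidal endothelial and macrophage lists are highest on the 3 quiescent arrays, and the activated stellate list is highest on the 6 activated arrays.

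Genes that act beside these 10 changed in both directions. Of 4 further Fabp genes only Fabp12 could be tested, and it fell by 2.53. It passed the background filter through the quiescent group alone. Over all scalings and background corrections its change lay between -2.55 and -0.54. Of 6 other membrane uptake genes 2 rose and 3 fell (median -0.72), with the transporter Slc27a3 up by 1.08 and Mfsd2a, a carrier of lysophospholipid-bound fatty acids, at -3.37. Over all scalings and background corrections Mfsd2a lay between -3.39 and -1.73, and Slc27a3 between 0.74 and 1.22. Among 11 tested acyl-CoA synthetases, which trap fatty acids as thioesters, 7 fell and 2 rose (median -3.72). Acsl3, the synthetase of endoplasmic reticulum and nascent lipid droplets, rose by 4.47, while Acsl1, the main synthetase of liver and fat, fell by 3.87, 14.6-fold. Of 11 acyl-CoA binding proteins and thioesterases 7 fell and 2 rose (median -1.09), from Acot12, the cytosolic acetyl-CoA hydrolase of liver, at -9.24 to the mitochondrial thioesterase Acot2 at 1.05.

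Lipoprotein lipolysis and receptor genes were evenly divided, with 6 of 12 rising and 6 falling (median -0.23). Gpihbp1, which anchors lipoprotein lipase on capillary endothelium, fell by 9.05, and Vldlr, the very low density lipoprotein receptor, rose by 4.35, 20.3-fold. A further list held 17 tested genes for Cd36 ligands, membrane and signalling partners, caveolae, palmitoylation and traffic. Of these 7 rose, 5 fell and 5 did not pass (median 0.33, close to the 0.32 of all genes). Cav1, the siRNA target, is in this list and rose by 4.27. Thbs1, a secreted Cd36 ligand, rose by 5.61, and the kinase Fyn, which acts downstream of Cd36, fell by 3.17. Of 5 free fatty acid receptors 4 fell (median -3.43, or -2.38 with genes at background set to their bound), Gpr84, the medium-chain fatty acid receptor, by 1.62. These receptors were dim, and the size of their falls depended on the processing. Over all scalings and background corrections the median lay between -3.46 and -0.55, and the change of Gpr84 between -1.65 and -0.55.

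Of 19 regulators of fatty acid uptake genes 15 fell, 3 rose and 1 did not pass (median -3.01). Hnf4a, the hepatocyte nuclear receptor, was at least 5120-fold lower on its brighter probe, and fell by 4.77 on its other one. Cebpa, a factor of hepatocytes and adipocytes, fell by 7.57, and Ppara, the PPAR of fatty acid oxidation, by 6.85 ± 0.32 (adjusted p = 1.4e-07). Pparg, the adipogenic PPAR known to control Fabp4 and Cd36, was at 1.72 ± 0.66 (SD, n = 3) in quiescent and 1.48 ± 0.15 in control-siRNA cells, a change of -0.24 ± 0.29 (SE) that did not pass (adjusted p = 0.49). Ppard, the widely expressed PPAR, rose by 0.61. These counts stand beside the 42.1% of all genes called higher and 26% called lower.

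**Figure D4:**
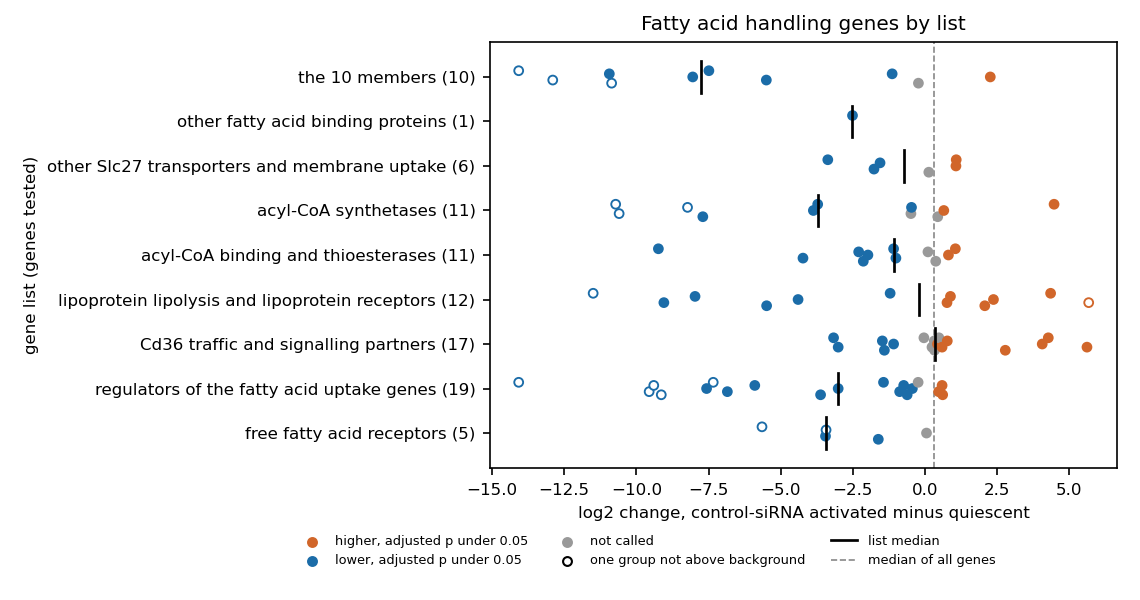
Log2 change from quiescent to control-siRNA activated cells (x axis) for the 10 genes and for each list of related genes reported (y axis, with the number tested), coloured by the call, with a bar at each median and a dashed line at the median of all genes. The 10 genes have their median at -7.77, and open points mark genes with one group not above background.

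For the 4 genes of widest range, the genes closest in pattern were found as those with the smallest root mean square difference of centred log2 values over the 9 arrays. For Fabp1 these were Clec4f, a Kupffer cell lectin, at 0.30, Hbb-bt, a globin, at 0.31 and Hnf4a at 0.33. For Slc27a2 they were Aadac, an esterase, Adh4, an alcohol dehydrogenase, and Mup20, a major urinary protein, at 0.40 to 0.46. For Slc27a5 they were Cyp3a41a, a cytochrome P450, Dpyd, an enzyme of pyrimidine breakdown, and Serpinc1, antithrombin, at 0.39 to 0.44. For Fabp2 they were Rgn, a calcium-binding protein, the predicted gene Gm16548 and Pygl, liver glycogen phosphorylase, all at 0.29. All these patterns are set chiefly by the step between 3 quiescent and 6 activated arrays, and over many of the latter the probes are at background.

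None of the 10 genes passed the test between the 2 siRNAs. Against the control siRNA, 0 of 10 were called by limma, beside 0% of all genes (adjusted p under 0.05) and 4.96% at an unadjusted p under 0.05. Fabp7 was the one gene of the 10 at an unadjusted p under 0.05. The median change of the 10 was -0.13, beside -0.04 for all genes. Groups did not overlap for 4 genes, 3 higher and 1 lower, beside 22.6% of all genes, 8.61% higher and 14% lower.

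Fabp3, Fabp4 and Fabp5 read higher on all 3 Cav1-siRNA arrays than on any control-siRNA array. The change was 0.33 (95% interval -0.08 to 0.73) for Fabp3, 0.52 (-0.29 to 1.34) for Fabp4 and 0.29 (-0.49 to 1.07) for Fabp5, each with an adjusted p of 0.9998. On their second probes Fabp3 differed by 0.25 and Fabp4 by 0.35, also without overlap. Cd36 read lower on all 3 Cav1-siRNA arrays, with a change of -0.53 (-1.23 to 0.18, adjusted p = 0.9998). Within slide 2, with 2 control-siRNA arrays against 3, these differences were 0.25, 0.58, 0.34 and -0.35, and none passed (adjusted p from 0.17 to 0.31).

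Slc27a1 overlapped between both siRNA groups, with a change of -0.33 (-0.75 to 0.08). Fabp7 differed by -0.67 (-1.30 to -0.04, unadjusted p = 0.039, adjusted p = 0.9627), and by -0.04 with normexp. Fabp1 and Slc27a2 were not above background in either activated group, so no difference between siRNAs was detectable for them. Fabp2, Fabp7 and Slc27a5 were above background on 1 of 6 activated arrays each, and no fold is given. The intervals leave room for changes of up to 2.52-fold in Fabp4, the upper bound of its ratio of 1.43, and 1.66-fold in Fabp3. Their spread is shared with the quiescent arrays, where the SD of Fabp4 was 0.86, against 0.11 in each activated group. For Fabp5 it was 0.82 against 0.09 and 0.07. With only the 6 activated arrays in the fit, Fabp4 differed by 0.52 ± 0.10 (SE) and Fabp5 by 0.29 ± 0.09. Fabp3 differed by 0.33 ± 0.10 and Cd36 by -0.53 ± 0.16, and none of the 4 passed (limma, adjusted p from 0.11 to 0.25).

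Under the Cav1 siRNA no gene of any list above was called, as none of all 23965 genes tested was, Cav1 among them. Of the regulators, Ppara differed by -0.53 and Pparg by 0.03 (both adjusted p = 0.9998). Marker sums in the 2 activated groups were 27.1 to 33.9 and 22.2 to 26.7 for macrophages and 4.59 to 5.15 and 2.94 to 3.27 for sinusoidal endothelium, each without overlap. Quiescent stellate sums, 34.2 to 34.8 and 30.5 to 33.2, and striated muscle sums, 0.825 to 1.01 and 0.749 to 0.784, were also lower without overlap. Activated stellate sums were higher without overlap, 807 to 823 and 870 to 920. Sums of the other lists overlapped. Of all genes taken singly, 22.6% did not overlap between these groups. Whether macrophages or sinusoidal endothelium had a part in the differences of Cd36 and Fabp4 between the siRNAs was not tested.

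Cells with the Cav1 siRNA set against quiescent cells gave the same counts as the control siRNA, with 1 gene higher, 8 lower and Fabp5 not passing, beside 67.6% of all genes called, 40.4% higher and 27.2% lower. Both comparisons share the quiescent arrays. Fabp3 was 2.58 ± 0.18 higher, Fabp4 4.98 ± 0.36 lower (-4.98), Cd36 8.02 ± 0.31 lower (-8.02) and Slc27a1 1.48 ± 0.18 lower (-1.48). Fabp1 was at least 5030-fold lower, Slc27a2 at least 2060-fold, Slc27a5 at least 1290-fold and Fabp7 at least 274-fold. Fabp2, with 1 of 3 Cav1-siRNA arrays above background, had a fitted change of -10.84 ± 0.35. With normexp the changes were 1.56 for Fabp3, -5.78 for Cd36, -9.30 for Fabp1, -8.36 for Slc27a2, -7.64 for Slc27a5, -5.11 for Fabp7 and -7.76 for Fabp2. Fabp5 changed by 0.07 (-0.71 to 0.85, adjusted p = 0.88), and without quiescent array 2 by 0.54 ± 0.11, which passed (adjusted p = 0.0036) and made 10 of 10 genes called. No slide held both groups, so no value within a slide can be given, and with slide as a block the count of genes called was again 9.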

How the data were processed

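Per the file headers, array images were quantified by Agilent Feature Extraction (version 10.7.1.1). The deposited files give a processed intensity for every spot, on a linear scale. Per the file headers, a fitted background had been subtracted and a multiplicative trend taken out, and arrays were not scaled to each other. Of 62976 spots on an array 59305 are not controls, and none of these was saturated. Labelling started from 0.2 µg of RNA, per the labels' protocols. Probe positions are on mm9, per the file headers, and promoter sequences and gene names are from RefSeq (GRCm38.p6).

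Intensities were taken to log2 and reduced by the 75th percentile over non-control spots of the same array, and repeated spots were averaged, outliers left out. Probes were retained if 0.5 or more of their spots exceeded background in all 3 samples of some group, which gave 36885, and 68 with no usable spot on an array were then dropped. The brightest retained probe stood for its gene. Comparisons were fitted with limma (version 3.58.1, R 4.3.3; lmFit and eBayes on 9 arrays with 3 group means, two-sided), p-values were adjusted by Benjamini-Hochberg over the 23965 genes, and calls were made at an adjusted p under 0.05. The fit was tested on simulated data. The number of arrays limits the precision, and for dim probes background does.

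The 10 genes and the lists of related genes were chosen with earlier results of these data known. Of each pathway list the text names the called genes with the largest rise and fall in the activation comparison that were measurable on all arrays of the 2 groups, with Cav1, Ppara, Pparg and Hnf4a whatever their values, and of each marker list at most the brightest 2. Alternatives covered scaling, background correction, normalization, the filter, probe averaging, slide, replicate block, weights, variance trend, the arrays in the fit and each array left out. Summed marker signals are sums of linear signals in units of the array's 75th percentile. Files were loaded in R through data.table (version 1.17.8), and sequences and figures were handled in Python 3.11.15 with pandas 2.3.3 and matplotlib 3.10.9. One item among the lists of related genes is not reported here.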

Additional observations from a re-analysis of the deposited data

How the results depend on the processing

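Of the 10 genes, 9 were called in activation under every alternative except 2: 4 of the 5 testable genes when probes had to be above background on all 9 arrays, and 8 within slide 1, where Slc27a1 no longer passed and the 1 control-siRNA array is assumed to vary like the quiescent ones. The stricter filter also left 4 of 5 called between Cav1-siRNA and quiescent cells, and fewer genes tested is its construction. Leaving out each array in turn gave 9 genes called in activation, 0 with the Cav1 siRNA, and 9 to 10 against quiescent cells. Reversed signs were of values that did not pass. Fabp5 in activation was 0.01 with array weights and -0.48 to 0.25 with arrays left out, and against quiescent cells -0.24 and -0.28 with normexp and quantile normalization and with quantile normalization alone, and -0.19 to 0.54 with arrays left out. With the Cav1 siRNA, Fabp1 was 0.02 after normexp, Fabp2 -0.22 with array weights and -0.22 to 0.37 with arrays left out, and Slc27a2 0.02 after normexp, 0.07 after quantile normalization and -0.45 to 0.32 with arrays left out. The cause was not tested.

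Over all genes, the Cav1 siRNA called 0, but 7 after normexp, 5 after normexp with quantile normalization, 6 with the stricter filter, 656 with array weights, 4 with a variance trend, 2 without quiescent array 1 and 19 with only the 6 arrays compared, none of them one of the 10. Activation called 16328 genes, and 7622 within slide 1. Cav1-siRNA against quiescent cells called 16210, and 10141 with slide as a block. Of genes called in activation 61.8% were higher, but 46.2% after normexp and 47% without a filter. The median of all genes in activation was 0.32, -0.12 after normexp and 0.47 with median scaling. Same-numbered arrays did not deviate together (correlations from -0.11 to 0.17), so the numbers were not taken as pairs. With the replicate block 9 of the 10 genes were called in activation, 0 with the Cav1 siRNA and 9 against quiescent cells. Signal over background limits 5 of the 10 genes in activated cells: with only the 6 activated arrays in the fit, 5 could be tested.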
